A study of Homo sapiens with 12 samples.

Results

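The genes described here encode the constitutive subunits of the 26S proteasome and 3 assembly chaperones of its base: PSMA1 to PSMA7, PSMB1 to PSMB7, PSMC1 to PSMC6 and PSMD1 to PSMD14. They were chosen by symbol, each matched 1 gene identifier, and together they make up 34 of the 60649 genes counted. All 34 passed the filter on low counts, which left 16683 genes for testing. By role, 14 belong to the core particle (7 of the alpha ring, 7 of the beta ring), 17 to the regulatory particle (6 base ATPases, 3 base subunits without ATPase activity, 8 lid subunits) and 3 are the chaperones PSMD5, PSMD9 and PSMD10. RNA was sequenced from spheroids of SBC3, an established human small cell lung cancer line, in 4 groups of 3 libraries: control; teriflunomide, an inhibitor of the pyrimidine synthesis enzyme DHODH; lurbinectedin, a DNA-binding drug that blocks transcription; and the combination of teriflunomide with lurbinectedin. All groups share the same line and spheroid culture, and the labels give neither doses nor exposure times. The study asks how teriflunomide acts together with chemotherapeutic drugs in this cancer.

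The proteasome is the protease that degrades most ubiquitin-tagged proteins in the cell. Its barrel-shaped core particle holds the proteolytic sites inside the beta rings, and the outer alpha rings gate the entry. The regulatory particle docks on the alpha ring: its lid removes the ubiquitin chain, and the ring of ATPases in its base unfolds the substrate and threads it into the core. Core and regulatory particles are built from subunits in fixed proportions, and cells short of proteasome activity raise the transcription of subunit genes through the factor NRF1, encoded by NFE2L1.

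Total counts ran from 23206414 to 33222162 per library. The share of counts on the 37 mitochondrial genes was 6.26% to 7.17% in control, 8.42%, 8.43% and 22.6% in teriflunomide replicates 1 to 3, 13.8% to 17.05% with lurbinectedin, and 14.6%, 24.9% and 13.1% in combination replicates 1 to 3, so that teriflunomide replicate 3 and combination replicate 2 stood apart. Of 8 small cell lung cancer and neuroendocrine markers, SYP (16.8 CPM in control), NEUROD1 (4.03 CPM) and DLL3 (1.96 CPM) were detected, POU2F3 and CHGA were at 0.150 CPM or less in control, and INSM1 and NCAM1 had no counts there. Summed markers of leukocytes reached 0.479 CPM and those of endothelium 0.579 CPM at most. Of the 4 fibroblast markers, LUM and DCN were at 0 in control, while COL1A1 and COL1A2 stood at 266 and 270.3 CPM in control, and the summed list ran from 519 to 549 CPM in control and from 186 to 227 CPM in the libraries with lurbinectedin; the part of this difference in the results was not tested. Levels are given as CPM, the counts of a gene scaled to the TMM-adjusted library size, for libraries 1, 2 and 3 in that order. CPM is a share of a library, so a rise or a fall is relative to the other genes and depends on the scaling. The amount of RNA per cell is not known, and a gene that rose in CPM need not have more mRNA per cell. A gene was called at an adjusted p under 0.05 in edgeR's quasi-likelihood test with Benjamini-Hochberg adjustment over all genes tested in a comparison. Nothing in the labels says that libraries of a group came from separate cultures, so p-values measure the spread between these libraries, which may be technical. In bulk RNA, fewer cells that use a gene and less of its RNA per cell cannot be told apart. Where the libraries of 2 groups are said not to overlap, the share of all genes without overlap was not counted.

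In control spheroids the subunit mRNAs differed widely in level although the subunits assemble in fixed proportions. Per kilobase of the principal transcript, PSMA7 (250 ± 4.94 CPM per kb, SD, n = 3) and PSMB4 (241 ± 8.50) were highest, followed by PSMD14 (209 ± 7.37) and PSMB1 (195 ± 6.42). PSMA7 and PSMB4 did not differ beyond about the sum of their SDs, whereas PSMD14 lay below both by more. The levels of PSMB5 (83.3 ± 2.18 CPM per kb) and PSMD8 (83.1 ± 1.80), of PSMC5 (74.8 ± 3.19) and PSMD1 (74.3 ± 2.54), and of PSMD3 (70.95 ± 0.50) and PSMB6 (70.2 ± 2.79) could not be separated within each pair. At the low end stood PSMA1 (18.6 ± 1.15), PSMA6 (14.3 ± 0.67), the chaperone PSMD9 (5.26 ± 0.52) and PSMA2 (0.79 ± 0.22 CPM per kb). The order depends on the length used: with the summed exon length in the files in place of the principal transcript, PSMA7 and PSMB4 were still first and second and PSMD9 and PSMA2 last, but PSMD14 moved from rank 3 to rank 9 and PSMD1 from rank 15 to rank 27. PSMA2, PSMA6, PSMA1 and PSMD9 share 99.1%, 81.0%, 53.2% and 28.2% of the bases of their principal transcripts with another annotated gene on the same strand, and these levels are uncertain. Of the 36 annotated pseudogenes named for these subunits, 35 had fewer than 100 counts over all 12 libraries, and PSMC1P1 had 557.

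Most genes of the regulatory particle rose with lurbinectedin, while the number of core genes called higher depended on the fit, from 2 to 7 of 14. Against control, 14 of the 34 genes rose and 4 fell, while 36.0% of all genes tested were called higher and 35.7% lower, so the share of calls among proteasome genes (18 of 34) was not above that of genes in general. The calls were unevenly spread by role: 12 regulatory genes rose and 2 fell, 2 core genes rose and 2 fell, and none of the 3 chaperones was called. The median log2 fold change was 0.52 over the 17 regulatory genes and 0.16 over the 14 core genes, beside 0.05 over all genes tested. With library size as the only scaling, which moved the median of all genes to -0.18, these medians were 0.28 and -0.08, the calls were 10 higher (8 of them regulatory) and 7 lower, where 25.9% and 40.2% of all genes were called, and the core stayed below the regulatory particle. In a fit of the control and lurbinectedin libraries alone, 20 of the 34 genes were called higher and 6 lower, where 42.1% and 41.7% of all genes were. The counts were again 20 and 6 without teriflunomide replicate 3 and combination replicate 2, where 40.4% and 39.2% of all genes were called. Both fits called 7 core genes higher in place of 2, adding PSMA5, PSMA6, PSMB3, PSMB5 and PSMB6, and 13 regulatory genes in place of 12, adding PSMD12. The core median was 0.14 and 0.15 and the regulatory median 0.50 and 0.51 in these fits.

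**Figure D1:**
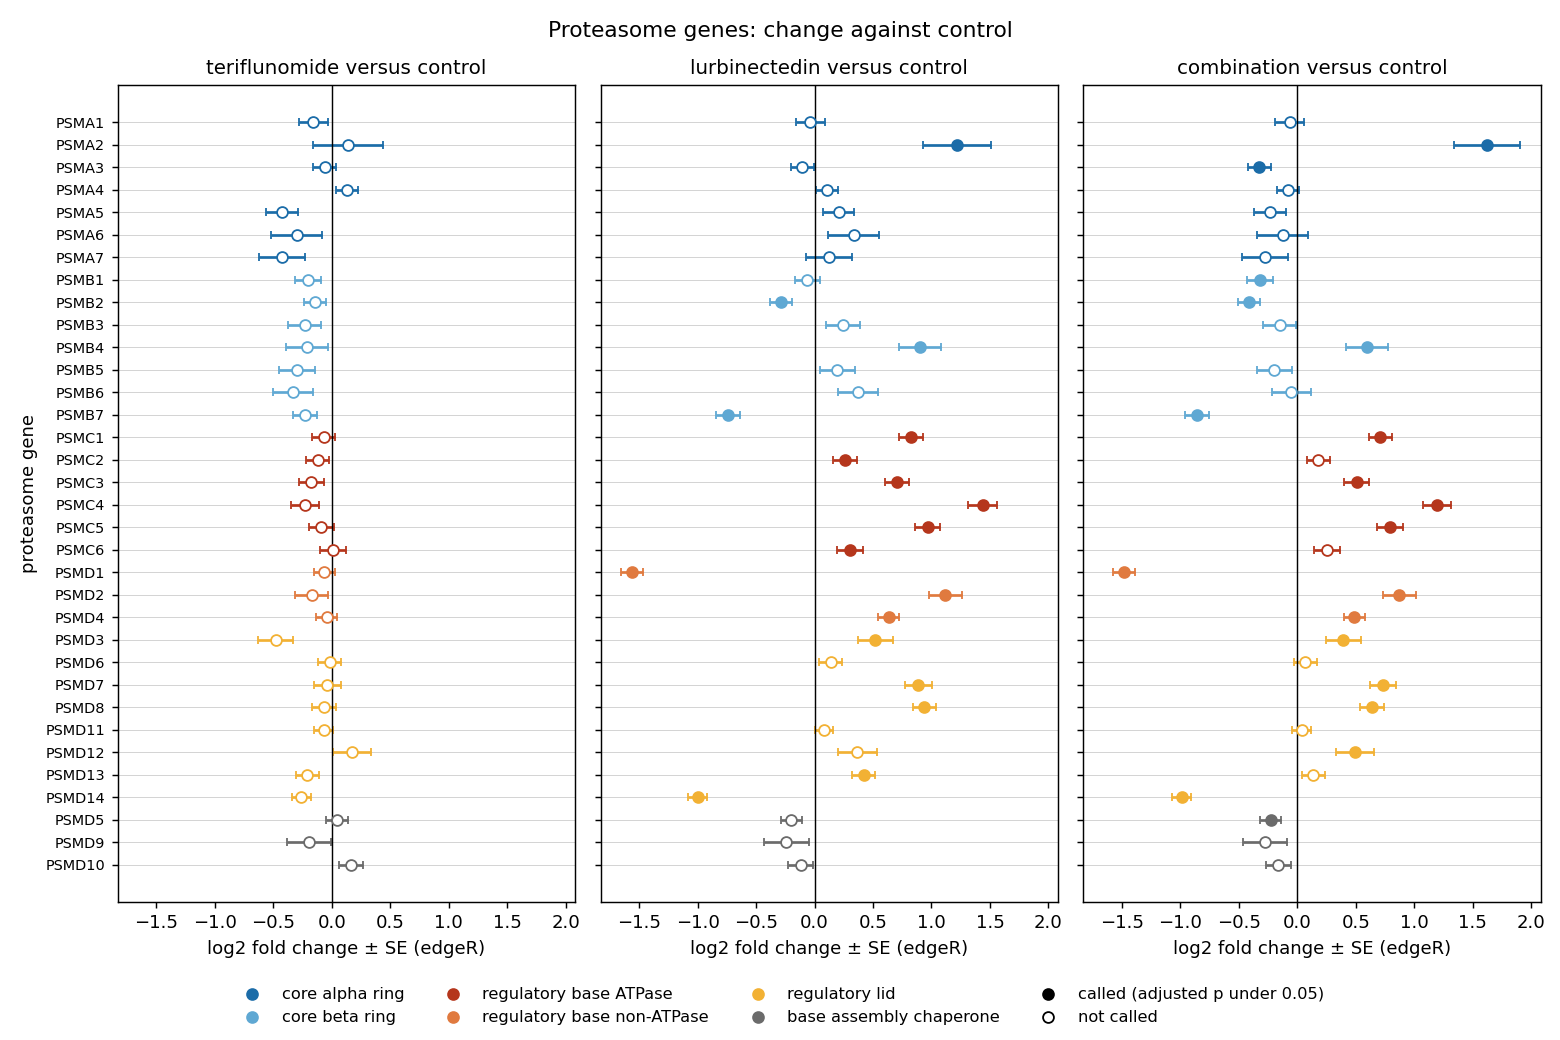
Log2 fold change ± SE of the 34 proteasome genes (vertical axis, by role) against control, 1 panel per treatment, from the edgeR fit of all 12 libraries; filled points were called at an adjusted p under 0.05 and open points were not. The teriflunomide panel has no filled point. Lurbinectedin fills all 6 base ATPases to the right, and PSMD1, PSMD14 and PSMB7 are filled to the left in both panels that include that drug.

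All 6 base ATPases, the subunits that unfold substrates and open the gate of the core, rose with lurbinectedin. PSMC4 (ENSG00000013275.8, chromosome 19, 39971165 to 39981764, plus strand) was at 104, 106 and 105 CPM in control and 315, 258 and 283 CPM with lurbinectedin (log2 fold change 1.44, SE 0.12, edgeR adjusted p = 1.47e-07). Every lurbinectedin library held more than 2 times the PSMC4 level of any control library, and the rise was the largest among the 34 genes. PSMC5, another of the ATPases, rose by 0.97 (SE 0.11, edgeR adjusted p = 2.11e-06), with 27.2% of its principal transcript opposite exons of FTSJ3. FTSJ3 had 2179 to 4267 counts per library, beside 2820 to 6385 for PSMC5, so the limit given below for PSMC1 applies here as well. PSMC1, one of the ATPases whose tail inserts into the alpha ring to open the gate, rose by 0.82 (SE 0.10, edgeR adjusted p = 4.71e-06), and its gate-opening partner PSMC3 by 0.71 (SE 0.10, edgeR adjusted p = 3.03e-05). NRDE2 exons on the opposite strand cover 82.1% of the PSMC1 principal transcript, and use of strand in counting is not stated, so reads of the pair cannot be told apart; NRDE2 had 137 to 669 counts per library.

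The other two base ATPases rose less. PSMC2 was at 92.5, 98.5 and 94.5 CPM in control and 124, 107 and 112 CPM with lurbinectedin (0.26, SE 0.10, edgeR adjusted p = 0.0298). PSMC6 was at 116, 116 and 105 CPM and 139.8, 138 and 138 CPM (0.30, SE 0.11, edgeR adjusted p = 0.0263). The groups did not overlap for either gene, but both calls were lost with DESeq2, with library size as the only scaling, without an expression filter and in 5 of the 6 fits that left out 1 library.

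The promoters of 4 genes are shown because these genes mark the extremes of the lurbinectedin response: PSMC4 had the largest rise and PSMC2 the smallest called rise, both among the base ATPases, PSMB4 was the core gene with the clearest rise, and PSMD1 had the largest fall. Each sequence holds the 250 bases before the gene's annotated start in RefSeq (GRCh38.p14), 5′ to 3′ on the gene's strand. Capitals mark matches, on either strand, to any of 5 motifs. The first is the core of the antioxidant response element, TGACNNNGC, to which the factors NRF1 and NRF2 bind. The second is the box bound by the factor NF-Y, CCAAT. The third is a site of the ETS family of factors, CCGGAAG. The fourth is the box bound by the factor SP1, GGGCGG, here called a GC box. The fifth is the TATA box, TATAAA.
PSMC4 chr19:39970915-39971164, plus strand: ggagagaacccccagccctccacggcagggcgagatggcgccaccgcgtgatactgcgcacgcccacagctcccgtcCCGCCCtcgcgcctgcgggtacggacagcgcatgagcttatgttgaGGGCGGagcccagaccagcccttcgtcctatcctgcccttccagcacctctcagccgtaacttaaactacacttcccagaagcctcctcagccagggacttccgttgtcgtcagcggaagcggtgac
PSMC2 chr7:103347393-103347642, plus strand: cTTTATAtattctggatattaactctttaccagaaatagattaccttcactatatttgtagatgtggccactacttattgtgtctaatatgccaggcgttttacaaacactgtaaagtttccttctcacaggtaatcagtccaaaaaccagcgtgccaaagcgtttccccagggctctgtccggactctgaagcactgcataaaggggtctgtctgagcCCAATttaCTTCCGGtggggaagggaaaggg
PSMB4 chr1:151399323-151399572, plus strand: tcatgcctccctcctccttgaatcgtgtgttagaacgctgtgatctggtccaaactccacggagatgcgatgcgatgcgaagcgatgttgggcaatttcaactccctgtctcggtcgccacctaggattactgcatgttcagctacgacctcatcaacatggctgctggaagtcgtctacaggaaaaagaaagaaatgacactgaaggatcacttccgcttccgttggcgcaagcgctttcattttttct
PSMD1 chr2:231056617-231056866, plus strand: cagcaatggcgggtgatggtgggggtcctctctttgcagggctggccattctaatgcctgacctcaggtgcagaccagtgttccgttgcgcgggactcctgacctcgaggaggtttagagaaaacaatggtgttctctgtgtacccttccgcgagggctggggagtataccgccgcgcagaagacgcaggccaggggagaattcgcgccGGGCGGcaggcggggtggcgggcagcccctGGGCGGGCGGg
The PSMC4 window held 2 GC boxes and the PSMD1 window 3, of which 1 pair overlaps. In PSMC2 a CCAAT match ended 27 bases and an ETS match 17 bases before the start, beside a TATA match at the far end, and the PSMB4 window held none of the 5. RefSeq start sites were found for 29 of the 34 genes. Among these, 7 of 29 (24.1%) had an antioxidant response match in the window, against 13.2% of 27305 genes, 7 (24.1%) an ETS match against 10.2%, 15 (51.7%) a CCAAT match against 37.0%, 19 (65.5%) a GC box against 46.2% and 4 (13.8%) a TATA match against 13.05%. The ETS matches lay in 6 of 16 regulatory genes (PSMC2, PSMC6, PSMD6, PSMD8, PSMD12 and PSMD13), in 0 of 10 core genes and in the chaperone PSMD9. These 6 regulatory genes had log2 fold changes of 0.14 to 0.94 with lurbinectedin, within the range of the other regulatory genes. The 27305 genes include genes that did not pass the filter on low counts, unlike the members. A member with several start sites counted if any of its windows matched. A match describes letters in the window, not a bound site.

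The large scaffold subunits of the base moved in opposite directions. PSMD2, the docking subunit for ubiquitin shuttle factors, was at 337, 349 and 335 CPM in control and 769, 689 and 759 CPM with lurbinectedin (1.12, SE 0.14, edgeR adjusted p = 7.52e-06). PSMD1 (ENSG00000173692.14, chromosome 2, 231056845 to 231173116, plus strand), the scaffold that anchors the ubiquitin receptor ADRM1, was at 242, 257 and 242 CPM in control and 81.2, 80.9 and 89.3 CPM with lurbinectedin (-1.56, SE 0.09, edgeR adjusted p = 2.86e-09). PSMD1 was 2.95-fold lower, the largest fall among the 34 genes, while PSMD2 was 2.17-fold higher, and neither gene's groups overlapped. PSMD4, a ubiquitin receptor of the base, rose by 0.64 (SE 0.09, edgeR adjusted p = 2.22e-05).

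Of the 8 lid subunits, 4 rose and 1 fell. The highest was PSMD8 at 131, 130.5 and 126 CPM in control and 271, 225 and 246 CPM with lurbinectedin (0.94, SE 0.10, edgeR adjusted p = 1.55e-06). The lowest was PSMD14 (ENSG00000115233.12, chromosome 2, 161308425 to 161411717, plus strand), the deubiquitinase that removes the ubiquitin chain from the substrate, at 417, 417 and 392 CPM in control and 207, 201 and 206 CPM with lurbinectedin (-0.9999, SE 0.08, edgeR adjusted p = 8.41e-08). The 3 lurbinectedin libraries lay far below all controls for PSMD14, while PSMD7, the inactive subunit with which it forms a dimer, rose by 0.89 (SE 0.11, edgeR adjusted p = 7.22e-06), with 50.4% of the PSMD7 principal transcript opposite another gene that had 74 to 158 counts. The structural lid subunits PSMD3 (0.52) and PSMD13 (0.42) also rose, but neither was called with library size as the only scaling (edgeR adjusted p = 0.251 and 0.222). PSMD6 (0.14), PSMD11 (0.08) and PSMD12 (0.37, edgeR adjusted p = 0.0589) were not called, but PSMD12 was in the fit of the compared groups alone (edgeR adjusted p = 4.31e-07).

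In the core particle the alpha ring, which gates entry, gave 1 call in 7 with all 12 libraries in the fit. That call was PSMA2, with counts of only 33, 46 and 30 in control and 50, 80 and 73 with lurbinectedin, or 1.11, 1.54 and 0.896 and 2.42, 3.13 and 2.65 CPM (1.22, SE 0.29, edgeR adjusted p = 0.0017). Because nearly the whole transcript is shared with another annotated gene, which had 0 to 11 counts, this value describes the reads assigned to PSMA2 and may not describe its mRNA. The other 6 alpha genes had log2 fold changes from -0.10 (PSMA3, 113, 114 and 103 CPM in control and 104, 106 and 97.2 CPM with lurbinectedin) to 0.34 (PSMA6).

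The beta ring, which carries the proteolytic sites, had 1 gene higher and 2 lower. PSMB4 (ENSG00000159377.11, chromosome 1, 151399560 to 151401937, plus strand), a structural subunit without proteolytic activity, was at 241, 225 and 232 CPM in control and 478, 394 and 433 CPM with lurbinectedin (0.90, SE 0.18, edgeR adjusted p = 0.000447). Among the catalytic subunits, PSMB7 (ENSG00000136930.13, chromosome 9, 124353465 to 124415444, minus strand), which carries the trypsin-like site, was at 96.8, 102 and 96.7 CPM in control and 62.5, 55.8 and 59.1 CPM with lurbinectedin (-0.74, SE 0.10, edgeR adjusted p = 1.94e-05). All 3 lurbinectedin libraries lay far below the controls for PSMB7. PSMB5, which carries the chymotrypsin-like site and is the main target of proteasome inhibitors, was at 111, 107 and 106 CPM and 138, 112 and 121 CPM (0.20, SE 0.15, edgeR adjusted p = 0.261), and PSMB6, which carries the caspase-like site, at 61.2, 57.0 and 61.1 CPM and 85.9, 71.7 and 74.5 CPM (0.37, SE 0.17, edgeR adjusted p = 0.061). The lurbinectedin libraries lay above the control libraries for PSMB5 and PSMB6. Neither was called with all 12 libraries, but both were in the fit of the compared groups alone (edgeR adjusted p = 0.00862 for PSMB5 and 5.46e-06 for PSMB6) and without the libraries of highest mitochondrial share (0.0311 and 0.000237). PSMB6 was also called with the filter at 1 CPM (edgeR adjusted p = 0.0406). PSMB2, a structural subunit, fell by 0.28 (SE 0.09, edgeR adjusted p = 0.0135). Its call was lost without control replicate 2 or without lurbinectedin replicate 2 (edgeR adjusted p from 0.0513 to 0.0701). PSMB1 (-0.06) and PSMB3 (0.24) were not called.

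The base chaperones, which bind the ATPases during assembly and leave before the particle is complete, had log2 fold changes of -0.12 (PSMD10), -0.20 (PSMD5) and -0.24 (PSMD9) with lurbinectedin. PSMD9, the lowest, was at 14.4, 16.2 and 13.3 CPM in control and 11.8, 12.5 and 12.9 CPM with lurbinectedin, and PSMD10, the highest, at 48.8, 46.6 and 43.5 and 46.3, 41.6 and 40.2 CPM. None was called with all 12 libraries, and the calls depended on the fit. PSMD5 was called lower by DESeq2 (-0.24, adjusted p = 0.00687), with DESeq2 size factors in edgeR (edgeR adjusted p = 0.0407), with library size as the only scaling (0.00618), with the compared groups alone (0.000979) and without the libraries of highest mitochondrial share (0.00705). PSMD9 was called lower in the last 2 of these fits (edgeR adjusted p = 0.00953 and 0.0271), and PSMD10 with library size as the only scaling (0.0294).

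**Figure D2:**
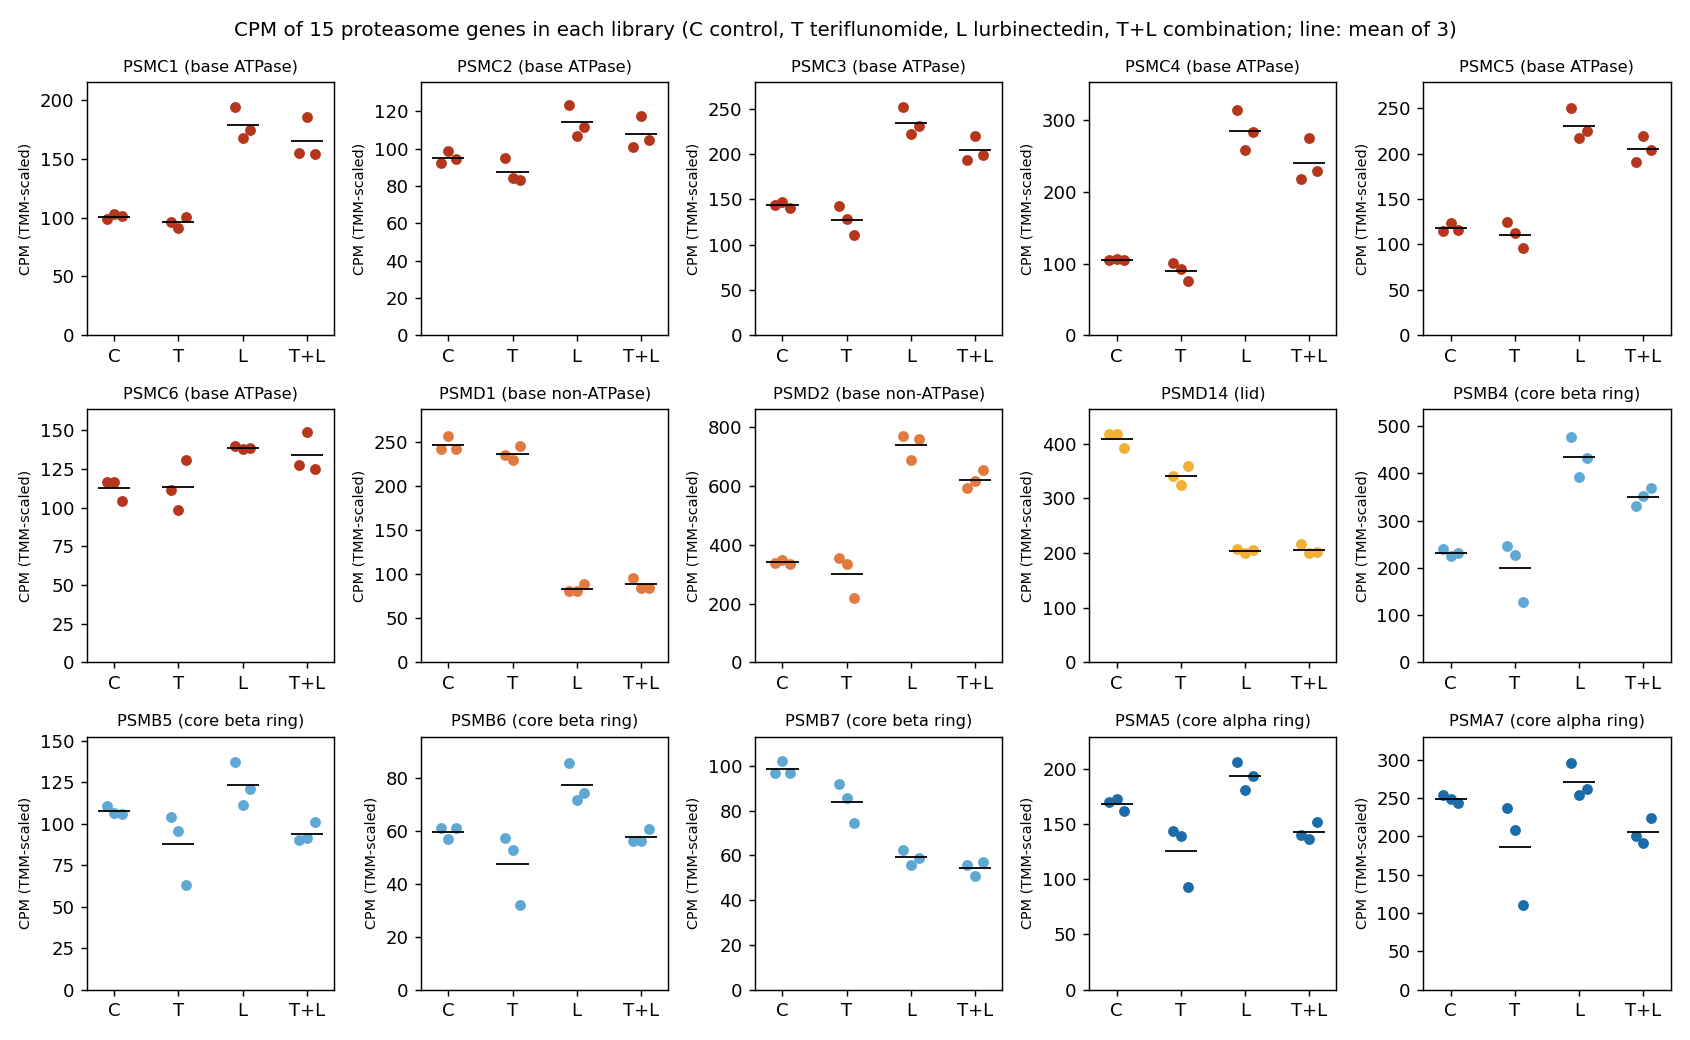
CPM of 15 proteasome genes in each of the 12 libraries (vertical axes start at 0; points are libraries 1, 2 and 3 of each group and lines the group means). The lurbinectedin and combination libraries lie above control for PSMC4, PSMC5 and PSMD2 and below it for PSMD1, PSMD14 and PSMB7, and teriflunomide replicate 3 is the lowest library for PSMA5, PSMA7, PSMB5 and PSMB6.

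The 4 genes that fell, PSMB2, PSMB7, PSMD14 and PSMD1, span 42.0, 62.0, 103 and 116 kb. Genomic span ran from 2.36 kb (PSMB6) to 138.8 kb (PSMA1), and the log2 fold change with lurbinectedin had a Spearman rho with span of -0.63 across the 34 genes (-0.60 over the core, -0.83 over the regulatory particle), beside -0.57 across 16651 nuclear genes. These values describe genes measured in the same libraries and are not replicates. PSMA1, the longest, was at -0.04, and its principal transcript covers only 15.8 kb of the locus. All nuclear genes were split by span into 5 classes of equal size. In the class from 5.26 to 16.3 kb, the median log2 fold change was 0.62 over all 3330 genes of the class, 0.80 over 8 regulatory genes (7 called higher) and 0.18 over 4 core genes (1 called higher). In the class from 16.3 to 35.9 kb, it was 0.28 over all genes, 0.44 over 4 regulatory genes and 0.07 over 4 core genes. In the class from 35.9 to 82.9 kb it was -0.36 over all genes, 0.17 over 2 regulatory genes and -0.28 over 3 core genes, and among longer genes -1.86 over all genes, -1.28 over PSMD1 and PSMD14 and -0.04 for PSMA1. Below 5.26 kb it was 0.69 over all genes, 0.97 for PSMC5 and 0.64 over PSMB4 and PSMB6. By genomic span, the regulatory median thus stood above that of all genes in all 5 classes. The core median stood below it in the 3 classes of shorter genes and above it in the 2 of longer genes. In these 2 classes the medians include PSMA1, PSMA6 and PSMC2, whose principal transcripts span only 15.8, 25.1 and 24.5 kb. Classes by the span of the principal transcript were not made. The median spans of the core and the regulatory genes were 18.4 and 16.0 kb.

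**Figure D3:**
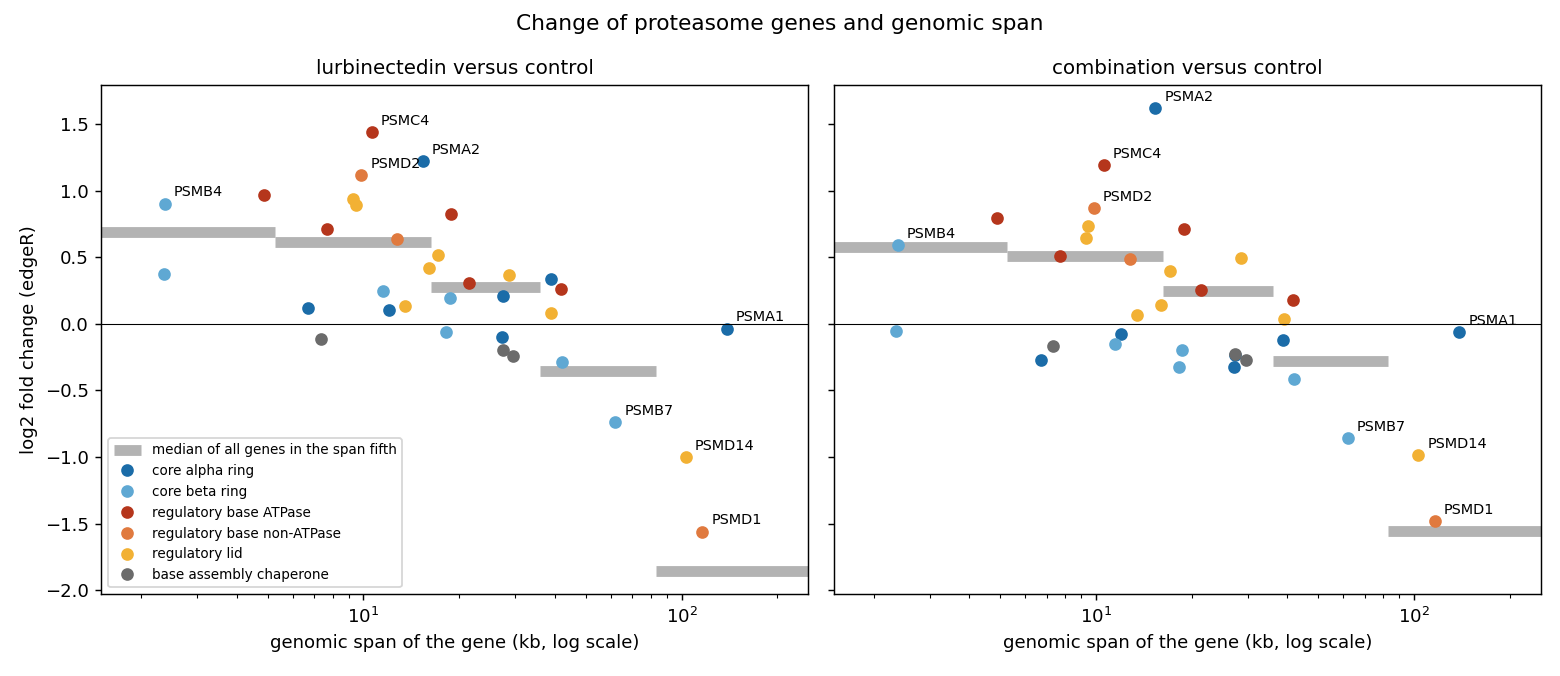
Log2 fold change of the 34 proteasome genes (vertical axis) against the genomic span of the gene in kb (log scale) for lurbinectedin and the combination against control; points are genes coloured by role and grey bars the median of all tested genes in each of 5 span classes. PSMD1 and PSMD14 lie with the long genes at -1.56 and -0.9999 with lurbinectedin, while most core genes between 5 and 30 kb lie below the grey bars.

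With the combination most regulatory genes again stood above control, while more core genes fell than rose. Against the same control libraries, 12 genes rose and 7 fell, where 34.1% of all genes were called higher and 34.4% lower. The regulatory particle gave 10 rises and 2 falls with a median log2 fold change of 0.49, and the core 2 rises and 4 falls with a median of -0.17, beside 0.04 over all genes. Of the base ATPases 4 rose, but PSMC3 was not called with library size as the only scaling (edgeR adjusted p = 0.0601). PSMC4 was at 218, 275 and 229 CPM with the combination (1.19, SE 0.12, edgeR adjusted p = 1.13e-06), and PSMC2, the lowest of the 6, at 101, 118 and 105 CPM (0.18, SE 0.10, edgeR adjusted p = 0.126). PSMC2 (0.18) and PSMC6 (0.25, edgeR adjusted p = 0.0616) were not called, although PSMC6 was in the fit of the compared groups alone (edgeR adjusted p = 0.0281).

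PSMD1 again fell most, to 96.0, 84.7 and 84.8 CPM (-1.48, SE 0.09, edgeR adjusted p = 5.84e-09), and PSMD2 rose to 593, 617 and 655 CPM (0.87, SE 0.14, edgeR adjusted p = 8.83e-05). In the lid PSMD14 fell to 216, 200.4 and 202 CPM (-0.99, SE 0.08, edgeR adjusted p = 1.17e-07), and PSMD7, the highest, stood at 88.8, 92.3 and 87.5 CPM in control and 142, 174 and 129.8 CPM (0.73, SE 0.11, edgeR adjusted p = 5.16e-05). The lid subunit PSMD12 was called higher, with 196, 242 and 143 CPM against 129.7, 145 and 137 CPM in control (0.49, SE 0.16, edgeR adjusted p = 0.016), but the groups overlapped and the call was lost without combination replicate 2 (edgeR adjusted p = 0.103) or without control replicate 1. PSMD3 (0.39) was likewise not called without combination replicate 2, with DESeq2 or in 4 other fits that left out 1 library.

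In the core, PSMA2, uncertain as above, was called higher at 3.26, 4.59 and 3.06 CPM (1.62, SE 0.28, edgeR adjusted p = 0.000157), and PSMB4 rose to 331, 353 and 369 CPM (0.59, SE 0.18, edgeR adjusted p = 0.00917). PSMB4 was not called with library size as the only scaling (edgeR adjusted p = 0.138). The genes that fell were PSMB7, at 55.8, 50.6 and 56.9 CPM (-0.86, SE 0.10, edgeR adjusted p = 5.35e-06), PSMB2 (-0.41), PSMA3 at 89.9, 92.9 and 80.3 CPM (-0.33, SE 0.10, edgeR adjusted p = 0.00867) and PSMB1 (-0.32). The PSMB1 call was lost without control replicate 2 or without combination replicate 1 (edgeR adjusted p from 0.0553 to 0.0664). PSMB5 was at 90.0, 91.3 and 101 CPM (-0.20, SE 0.15, edgeR adjusted p = 0.267), every library below the controls, and PSMB6 at 56.3, 56.1 and 60.7 CPM (-0.05, SE 0.17, edgeR adjusted p = 0.799), overlapping them. PSMA5 and PSMA7 were also called lower in the fit of the compared groups alone (edgeR adjusted p = 0.0253 and 0.0134). Among the chaperones PSMD5 was called lower (-0.23, SE 0.09, edgeR adjusted p = 0.0373), a call lost in 8 of 15 alternative fits. The chaperone PSMD9 was at 11.3, 12.3 and 12.7 CPM (-0.27) and PSMD10 at 44.9, 42.1 and 37.1 CPM (-0.16).

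Whether teriflunomide changed these genes on top of lurbinectedin was read from the combination against lurbinectedin alone. None of the 34 genes was called by edgeR (0.0% of all genes tested were called higher and 0.0% lower) or by DESeq2, and 8 of 34 (23.5%) had an unadjusted p under 0.05, all lower in the combination. Over all genes 15.6% had such a p and 5.77% had one with a lower value. Of the 34 log2 fold changes 30 were below 0, as were 7788 of 16683 over all genes. Medians were -0.29 over the core, -0.13 over the regulatory particle and 0.03 over all genes. The lowest were PSMA6 (-0.46) and PSMA5 (-0.44), followed in the beta ring by PSMB6 (-0.42). PSMA5 was at 207, 181 and 194 CPM with lurbinectedin and 140.3, 137 and 152 CPM with the combination (edgeR adjusted p = 0.186), PSMA6 at 19.8, 17.7 and 18.3 and 13.8, 13.6 and 13.1 CPM (edgeR adjusted p = 0.329). The libraries of these genes and of PSMB5 and PSMB6 did not overlap between the groups, but none of the differences was called. How many of all genes show no overlap was not counted, so the lack of overlap is not a result about these genes. The lowest of the regulatory genes was PSMD8 (-0.30), at 184, 226 and 194 CPM in the combination, which overlapped lurbinectedin.

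The largest positive values in this comparison were PSMA2 (0.40) and PSMD12 (0.13), and PSMD12 was at 183, 177 and 171 CPM with lurbinectedin, inside the range of the combination. PSMD1 (0.08), PSMD14 (0.01) and the chaperones (-0.05 to -0.03) were close to 0. When the libraries with the highest mitochondrial shares, teriflunomide replicate 3 and combination replicate 2, were left out together, a check added after seeing the data, 18 of the 34 genes were called lower in the combination, 10 of the core and 8 of the regulatory particle, where 10.1% of all genes were called lower. The medians were then -0.30 and -0.17, beside -0.29 and -0.13 with all libraries.

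Teriflunomide alone gave no calls. Against control 0 of 34 genes were called by edgeR, where 3.88% of all genes were called higher and 2.13% lower, and 4 of 34 (11.8%) had an unadjusted p under 0.05, all lower. Over all genes 24.8% had such a p and 10.6% had one with a lower value. The median log2 fold change was -0.15, beside 0.03 over all genes. Of the 34 values 28 were below 0, as were 7706 of 16683 over all genes. The 34 genes were measured in the same libraries and are not replicates. The lowest values were PSMD3 (-0.48, SE 0.15, edgeR adjusted p = 0.0725), at 154, 153 and 152 CPM in control and 130.3, 121 and 78.3 CPM with teriflunomide, and PSMA5 (-0.42, SE 0.14, edgeR adjusted p = 0.0806), at 169.6, 172 and 162 and 144, 139 and 93.2 CPM. PSMA7 had nearly the same value as PSMA5 (-0.42, SE 0.20, edgeR adjusted p = 0.205). For these genes teriflunomide replicate 3, with its mitochondrial share of 22.6%, was far below the other two, and the part of that share in the values was not tested. The highest values were PSMD12 (0.17, 140.1, 138 and 188 CPM) and PSMD10 (0.17, 52.2, 50.4 and 53.2 CPM).

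In the beta ring all 7 values were below 0 with teriflunomide, from -0.33 (PSMB6, 57.5, 52.9 and 32.1 CPM) to -0.14 (PSMB2, 286, 298 and 281 CPM in control and 283, 262 and 238 CPM with teriflunomide). PSMB5 was at 104, 95.7 and 63.2 CPM and PSMB7 at 92.1, 85.7 and 74.3 CPM. The base ATPases ranged from -0.23 (PSMC4, 101, 92.8 and 76.4 CPM) to 0.01 (PSMC6, 111, 98.5 and 131 CPM), and the other base subunits from -0.17 (PSMD2, 354, 333 and 219.8 CPM) to -0.04 (PSMD4, 150.0, 147 and 143 CPM in control and 154, 138 and 136 CPM). DESeq2 called 3 genes lower, PSMA5, PSMD3 and PSMD14, where it called 5.61% of all genes lower. Without teriflunomide replicate 3, edgeR called PSMD3 (-0.29, edgeR adjusted p = 0.0437) and PSMD14 (-0.30, edgeR adjusted p = 0.0163) lower, where 3.6% of all genes were, and the median over the 34 genes was -0.09. Without combination replicate 2 as well, the called genes were PSMA5, PSMD3 and PSMD14, where 7.07% of all genes were called lower. PSMD14 was at 340.1, 325 and 359 CPM with teriflunomide, each library below the controls.

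The combination against teriflunomide alone, which shares libraries with the comparisons above, gave 13 rises and 7 falls, where 35.2% of all genes were called higher and 35.8% lower. The extremes were PSMA2 (1.48) and PSMC4 (1.42, SE 0.12, edgeR adjusted p = 1.96e-07) above, and PSMD1 (-1.42, SE 0.09, edgeR adjusted p = 8.64e-09) and PSMD14 (-0.73, SE 0.08, edgeR adjusted p = 2.26e-06) below. The regulatory particle had 11 genes higher and 2 lower (median 0.53), the core 2 higher and 3 lower (median 0.10), and of the chaperones PSMD5 (-0.28) and PSMD10 (-0.33) were lower. A fit restricted to the 6 libraries compared called 3 lower in place of 7, where 32.4% of all genes were. The interaction, which asks whether the effect of teriflunomide differed with lurbinectedin present, called 0 of 34 genes with edgeR and with DESeq2, where edgeR called 0.036% of all genes positive and 0.222% negative, and 2 of 34 (5.88%) had an unadjusted p under 0.05, beside 10.3% of all genes. The interaction values ran from -0.31 (PSMA4) and -0.23 (PSMD8) to 0.27 (PSMD14) and 0.35 (PSMD3). PSMA4, at 164, 149 and 186 CPM with teriflunomide and 167, 162 and 161 CPM with lurbinectedin, was at 141, 154 and 137 CPM with both and at 153, 151 and 152 CPM in control. Without teriflunomide replicate 3 and combination replicate 2, PSMD14 was called for the interaction (0.33, edgeR adjusted p = 0.0232), where 5.88% of all genes were called positive.

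By library, the balance of core and regulatory transcripts shifted to the regulatory particle with lurbinectedin and in teriflunomide replicate 3. Relative to the control mean, the median log2 CPM of the core minus that of the regulatory particle was 0.04, -0.01 and -0.01 in control. With teriflunomide it stood at 0.00, -0.02 and -0.43, under lurbinectedin at -0.33, -0.37 and -0.38, and in the combination at -0.62, -0.76 and -0.62. All 6 libraries with lurbinectedin lay below the controls, and the combination libraries lay below those of lurbinectedin alone. Teriflunomide replicate 3, without lurbinectedin, was apart from the rest of its group and also lay below every library of lurbinectedin alone. The summed CPM of the 14 core genes divided by that of the 17 regulatory genes was 0.667 ± 0.012 in control (SD, n = 3). The teriflunomide libraries gave ratios of 0.682, 0.667 and 0.531. The ratio lay below the control range in every lurbinectedin library (0.547 ± 0.011) and every combination library (0.496 ± 0.029). The core sum was 1791 ± 35.9 CPM in control, 2002 ± 143 with lurbinectedin and 1632 ± 40.003 with the combination, and the regulatory sum 2684 ± 58.9, 3658 ± 201 and 3297 ± 197 CPM. In the fits, the median log2 fold change of the core minus that of the regulatory particle was -0.36 with lurbinectedin, -0.66 with the combination and -0.15 with teriflunomide (-0.01 without teriflunomide replicate 3).

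**Figure D4:**
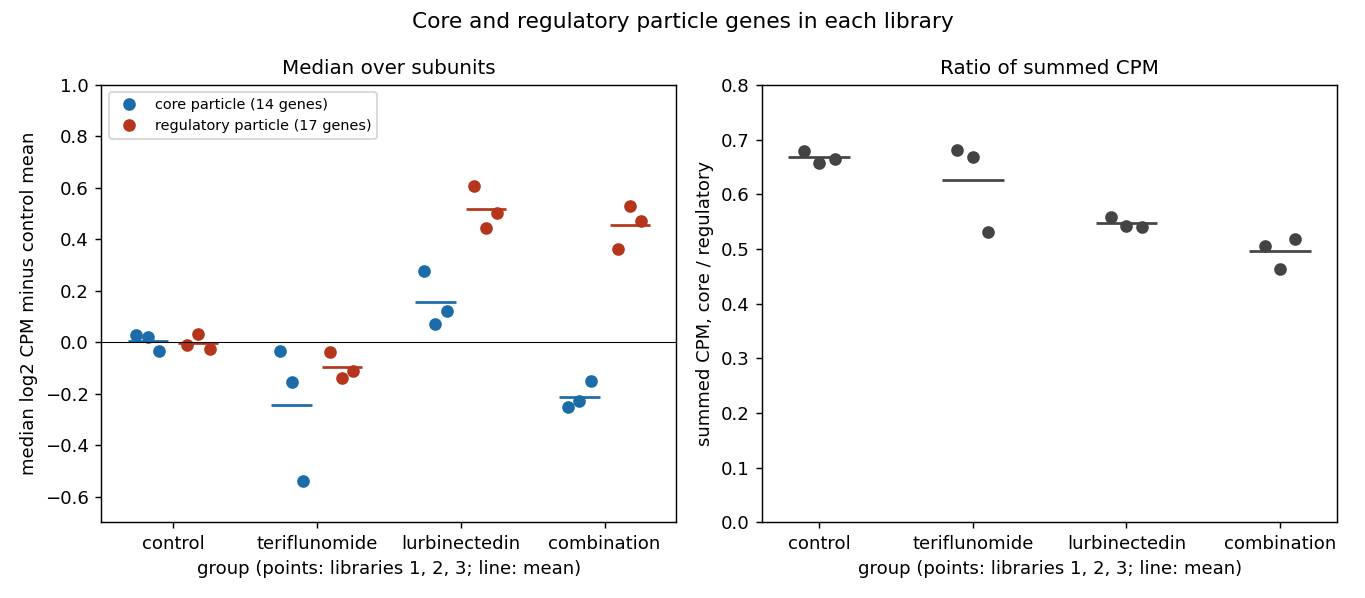
Left, median over the 14 core and the 17 regulatory genes of log2 CPM minus its control mean, by library; right, ratio of the summed CPM of core to regulatory genes (axis from 0). Lines are means of 3 libraries. The core ratio lies between 0.657 and 0.680 in control and between 0.463 and 0.519 with the combination.

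Of 37 further genes that activate, assemble, regulate or feed the proteasome, 34 passed the filter. With lurbinectedin 15 of these rose and 13 fell, where 36.0% and 35.7% of all genes did, with the combination 14 and 14 (34.1% and 34.4% of all genes), and with teriflunomide 0 and 1 (3.88% and 2.13%). By role with lurbinectedin, both called subunits outside the 34 rose: ADRM1, a ubiquitin receptor of the base, was at 58.1, 54.8 and 55.8 CPM in control, 203, 172 and 188 CPM with lurbinectedin and 141, 184 and 149 CPM with the combination (1.74, SE 0.14, edgeR adjusted p = 1.10e-07), and PSMB10, the inducible counterpart of PSMB7, at 0.436, 0.501 and 0.627 and 1.94, 1.41 and 2.11 CPM (1.79, SE 0.34, edgeR adjusted p = 0.000328). PSMB10 had 13, 15 and 21 counts in control and 40, 36 and 58 with lurbinectedin, and 45.3% of its principal transcript is shared on the same strand with another annotated gene, which had 11 to 101 counts, so its values are uncertain. ADRM1 thus rose while PSMD1, which anchors it, fell. Of the ADRM1 principal transcript, 24.1% lies opposite exons of other genes, among them LAMA5 with 799 to 2289 counts, and use of strand in counting is not stated. The other inducible subunits stayed low, with PSMB9 at 1.24, 0.802 and 0.986 CPM in control and 1.11, 1.09 and 1.02 CPM with lurbinectedin and PSMB8 at 0 to 13 counts in every library.

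Among the activators, PSME4 was at 195, 214 and 204 CPM in control and 77.5, 82.8 and 86.9 CPM with lurbinectedin (-1.31, SE 0.11, edgeR adjusted p = 8.19e-08), while PSME2 (0.97) and PSME3 (0.58) rose and PSME1 (-0.40) and the inhibitor PSMF1 (-0.53) fell. Of 6 assembly factors, PSMG3 (0.76) and PSMG4 (0.59) rose, and PSMG1 (-0.52), PSMG2 (-0.67) and PAAF1 (-1.22) fell. Exons of CEP76, with 522 to 881 counts, lie opposite 17.3% of the PSMG2 principal transcript, so the PSMG2 value is less certain. PSMG1 with PSMG2 and PSMG3 with PSMG4 form separate dimers that build the alpha ring, so the members of each dimer moved together and the dimers apart. POMP, the maturation factor of the core, was at 101, 104 and 102 CPM in control, 108, 98.9 and 95.6 CPM with lurbinectedin and 88.4, 79.9 and 76.3 CPM with the combination, where it was called lower (-0.32, SE 0.11, edgeR adjusted p = 0.0142). All 3 enzymes that bind the proteasome and act on its substrates, USP14 (-0.64), UCHL5 (-0.52) and UBE3C (-0.86), fell with lurbinectedin. USP14 and UCHL5 span 56.2 and 47.8 kb, in the class where the median of all genes was -0.36. UBE3C and PSME4 span 130 and 107 kb, where it was -1.86. PSME1 and PSMG1, which also fell, span 2.81 and 8.72 kb, where it was 0.69 and 0.62. The part of span in these changes was not tested.

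In the feedback pathway that controls subunit genes, NFE2L1 was at 141, 144 and 146 CPM in control, 161, 150.0 and 157 CPM with teriflunomide, 258, 226 and 244 CPM with lurbinectedin and 217, 269.7 and 227 CPM with the combination (0.76, SE 0.10, edgeR adjusted p = 8.96e-06 with lurbinectedin). DDI2, the protease that cleaves the NRF1 protein, rose by 0.59 with lurbinectedin and was the 1 gene of the list called with teriflunomide, where it fell by 0.39 (edgeR adjusted p = 0.042). Another annotated gene on the same strand shares 17.4% of the DDI2 principal transcript. NGLY1, which removes sugars from NRF1, fell with lurbinectedin (-1.06, SE 0.13, edgeR adjusted p = 5.83e-06), so the genes of this pathway did not share a direction. NFE2L1 spans 13.2 kb, in the class where the median of all genes was 0.62 with lurbinectedin. NGLY1 and DDI2 span 71.1 and 51.6 kb, where it was -0.36. NFE2L2, which encodes NRF2, was at 33.9, 35.4 and 35.5 CPM in control, 36.2, 37.8 and 38.4 CPM with lurbinectedin (0.10, not called) and 48.3, 41.9 and 40.9 CPM with the combination (0.32, SE 0.11, edgeR adjusted p = 0.0212).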

How the data were processed

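Raw read counts per gene were deposited by the authors as 1 table for each of 12 libraries. Per the submitters' processing notes, reads were trimmed with fastp 0.23.2, aligned to hg38 with STAR 2.7.9 and counted with featureCounts of Subread; the use of strand, the treatment of multi-mapping reads and the annotation release are not given in the sources used here. Gene positions matched GENCODE 29 for all 37318 identifiers of the same version, and symbols, promoters and principal transcripts were taken from reference tables.

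Counts were tested with edgeR 4.0.16 in R 4.3.3 (filterByExpr, TMM, robust quasi-likelihood fit of 1 mean per group to all 12 libraries), and p-values were adjusted by Benjamini-Hochberg over 16683 genes in each of 6 contrasts. SEs were derived from the F statistic. The coefficient that edgeR names biological variation was 14.5%, and it measures the spread between these libraries, which may be technical. The test was checked on simulated data in which few genes changed, up and down in equal number, in the lurbinectedin group. Such data cannot show how the scaling behaves where most genes are called, as with lurbinectedin. DESeq2 1.42.0, other scalings and filters, a replicate block, the compared groups alone, a stricter threshold, removal of mitochondrial genes and omission of single libraries were alternatives. The members, the lists and the tests were chosen with earlier results of these data known. All 34 genes may be named; per-library values are given for PSMB5, PSMB6 and PSMB7, for the 2 highest and the 2 lowest genes of each contrast and for the highest and the lowest of each role. Of the 37 pathway genes, called ones may be named, with library values for the 3 largest changes and for NFE2L1, NFE2L2, POMP, PSMB8, PSMB9 and PSMB10. Some genes of the marker and pathway lists are not reported here.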

Additional observations from a re-analysis of the deposited data

How the results depend on the processing

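The samples share replicate numbers, but the labels do not say what a number marks, and 1 of 18 same-numbered pairs of libraries correlated above 0.1 in their deviations (r from -0.40 to 0.14), so the numbers were not taken as pairing. With the replicate number as a block, 13 genes were called higher and 4 lower with lurbinectedin, and 12 and 6 with the combination. Where a count from an alternative fit, as for this block, has no share of all genes beside it, it only compares the fits. No called proteasome gene changed its sign under any alternative. The core median with lurbinectedin did (0.16, but -0.08 when scaled by library size alone), and the core minus regulatory difference of the interaction ran from -0.20 to 0.07 when 1 library was left out. Of the calls, 13 of 18 with lurbinectedin, 12 of 19 with the combination and 14 of 20 in the combination against teriflunomide were made under every alternative.

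With teriflunomide against control, the count of genes called lower was 0, and became 3 without an expression filter, 3 with DESeq2, 3 without both libraries of highest mitochondrial share, and 0 to 2 when 1 library was left out. With lurbinectedin, library size as the only scaling gave 7 lower in place of 4, and the fit of the compared groups alone and that without both libraries each gave 20 higher and 6 lower in place of 14 and 4, with 7 core genes higher in place of 2. The core minus regulatory difference of medians with lurbinectedin (-0.36) became -0.24 as a mean over subunits, -0.23 with the 3 chaperones counted in the regulatory particle, and -0.30 without genes that overlap another. With the combination (-0.66) it became -0.36 as a mean, -0.50 with the chaperones, -0.54 without both libraries, and -0.69 to -0.54 when 1 library was left out, the last without combination replicate 2. In the combination against lurbinectedin, leaving out both libraries gave 18 lower in place of 0, but omission of any 1 library gave 0. In the combination against teriflunomide, 3 genes in place of 7 were lower with only the groups compared and 3 at an adjusted p under 0.01. Omission of both libraries gave 1 positive interaction in place of 0. The omission of both libraries and of overlapping genes was chosen after seeing the data. The cause of these differences was not tested. At 3 libraries a group and a variation between libraries of 14.5%, changes near 0.3 on the log2 scale passed or missed the threshold with the choice of fit. PSMA2 and PSMD9 have the fewest counts.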
